A study of Mus musculus with 48 samples.

Results

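Interferon-stimulated genes are the genes that a cell turns on when type I or type II interferon binds its receptor. A fixed list of 46 such genes was followed in the cortex and hippocampus of APPswe/PS1dE9 mice, out of 22932 genes named on the arrays. The list was drawn up by function, from antiviral effectors and the factors that control them, and not by a cutoff on these values. Earlier results of these data were known when it was chosen, so its counts are no independent test. Of the 46 genes, 44 had a probe, and no probe was named Mx1 or Mx2. A filter on dim probes kept 43 of them in the cortex and 41 in the hippocampus: Oas3 was kept in neither tissue, and Herc6 and Ifi44 only in the cortex. The filter keeps a probe that is well above background in a single group, so a gene that is bright only in transgenic mice also passes it.

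The mice were heterozygous males on a C57Bl6/J background that carry APPswe and PS1dE9 (APP/PS1), which drive amyloid deposition, or their non-transgenic littermates (WT). Both genotypes received either plain drinking water (H2O) or MSX-3 dissolved in it at 0.3 g/L. MSX-3 dissolves in water and is converted in the body to MSX-2, a blocker of the adenosine receptor A2AR. Dosing ran from 3 months of age per the sample labels, or 4 months per the series text, up to 9 to 10 months, when both tissues were taken from each of 24 mice. Each of the 8 groups had 6 arrays, 1 per mouse, but 1 WT H2O and 1 WT MSX-3 array of the cortex had failed grids and were left out, which left 5 arrays in each of those groups. The transgenes are copies driven by prion gene sequences, so the model overexpresses mutant proteins in the whole brain and in no single cell type, and whole tissue was lysed.

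Type I interferons signal through the receptor chains Ifnar1 and Ifnar2, which activate a complex that includes Stat2 and Irf9. It binds a short promoter element, the interferon-stimulated response element (ISRE), whereas interferon gamma acts mainly through another element, GAS. The induced genes include sensors of foreign RNA and DNA, enzymes that destroy or disguise RNA, membrane proteins that hold back virus particles, the ubiquitin-like modifier Isg15, and GTPases that attack vacuoles. In brains with amyloid plaques, microglia are the cells best known for this program, with astrocytes and other cells contributing.

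The promoters show how far the list shares the element. RefSeq windows on GRCm38.p6, from 250 bases before to 50 bases after a start site, were at hand for 34 of the 46 genes, in 40 windows because 6 genes had 2. The letters GAAANNGAAA, read on both strands, stood for the ISRE and occurred in 18 of the 40 windows (45%), as compared with 3.44% of all 32851 RefSeq windows of that length. The letters TTCNNNGAA stood for GAS and occurred in 10 windows (25%), against 8.3% of all windows. Both motifs lay in 6 windows (15%, against 0.454% of all), and in 2 of them they overlapped (5%, against 0.0731%). A match describes the letters and is no evidence of binding. The stretches below, 150 bases before to 50 after the start on the gene's own strand, were chosen because they differ in how the element is placed. They do not represent the list, since 17 of the 34 genes with a window had an ISRE match (50%). Among genes with large rises described below, Ifi27l2a and Ifi204 had no window at hand, and Lgals3bp and Oasl2 had a window without a match. Capitals mark ISRE matches, and those on the opposite strand read as the reverse complement of these letters.
Isg15, chr4:156200769-156200968, minus strand: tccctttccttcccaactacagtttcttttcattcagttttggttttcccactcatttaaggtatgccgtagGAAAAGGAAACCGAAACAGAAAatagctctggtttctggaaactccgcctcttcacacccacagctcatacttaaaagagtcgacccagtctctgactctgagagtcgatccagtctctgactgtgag
Ifit1, chr19:34640739-34640938, plus strand: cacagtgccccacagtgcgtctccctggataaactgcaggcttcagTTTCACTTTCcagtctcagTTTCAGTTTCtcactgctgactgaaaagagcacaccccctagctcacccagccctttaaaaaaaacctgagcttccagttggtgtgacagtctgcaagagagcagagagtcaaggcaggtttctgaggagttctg
Oas1a, chr5:120907476-120907675, minus strand: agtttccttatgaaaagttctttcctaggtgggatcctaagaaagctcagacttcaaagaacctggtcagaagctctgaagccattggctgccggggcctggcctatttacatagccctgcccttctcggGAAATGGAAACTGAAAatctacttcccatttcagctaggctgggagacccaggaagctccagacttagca
Bst2, chr8:71537423-71537622, minus strand: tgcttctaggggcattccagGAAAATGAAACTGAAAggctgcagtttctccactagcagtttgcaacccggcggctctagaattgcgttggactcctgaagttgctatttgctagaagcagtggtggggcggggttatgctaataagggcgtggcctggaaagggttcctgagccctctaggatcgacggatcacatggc
Rsad2, chr12:26456403-26456602, minus strand: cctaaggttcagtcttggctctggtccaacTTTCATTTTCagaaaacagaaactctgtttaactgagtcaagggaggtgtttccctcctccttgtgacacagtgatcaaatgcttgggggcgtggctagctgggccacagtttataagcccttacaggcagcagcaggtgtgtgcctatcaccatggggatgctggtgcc
Irf7, chr7:141266375-141266574, minus strand: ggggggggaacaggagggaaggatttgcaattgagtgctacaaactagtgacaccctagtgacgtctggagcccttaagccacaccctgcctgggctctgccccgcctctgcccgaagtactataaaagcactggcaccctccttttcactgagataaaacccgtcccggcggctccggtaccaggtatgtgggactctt

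Isg15 had 3 overlapping matches between positions -78 and -57 from its start, Ifit1 had 2 separate matches between -104 and -76, and Oas1a had 2 overlapping matches between -20 and -5. Bst2 had 2 overlapping matches between -130 and -115, Rsad2 had 1 between -120 and -111, and Irf7 had none in its window.

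Levels are given as log2 of the signal minus log2 of the 75th percentile of the same array, so that 0 is the level of a probe at that percentile. They compare 1 probe between samples and never 1 gene with another. A gene was called when its limma fit gave a Benjamini-Hochberg (BH) adjusted p under 0.05 over all probes of the tissue and the fold change was at least 1.5. Log2 fold changes are given with their SE. The 46 arrays used had 55.8% to 75.5% of spots well above background and median correlations of 0.971 to 0.986 with the other arrays of their tissue, against 11.4% and 15.8% of spots and 0.003 and 0.00483 for the 2 failed ones. Arrays lay on 7 slides read on 2 scan days that the groups did not share evenly. In the labelled tissues, the hippocampal genes Prox1 and Lct were lower in WT H2O cortex than in WT H2O hippocampus by -2.95 ± 0.14 and -5.32 ± 0.16, and the cortical gene Cux2 was higher by 2.80 ± 0.19. As a check of genotype, the prion gene probe Prnp, which the transgene vector shares, was higher in APP/PS1 mice by 2.02 in the cortex of H2O mice.

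In the cortex of H2O mice, APP/PS1 animals expressed most of the interferon-stimulated genes at a higher level than WT animals. Of the 43 genes tested, 26 were called higher and 0 lower, whereas 1.34% of all 37677 probes were called higher in the same fit. The largest rises were those of Ifi27l2a at 11.6-fold, Ifi204 at 7.05-fold, Oasl2 at 4.67-fold and Oas1a at 4.52-fold. All 43 genes had a higher mean in APP/PS1 mice (42 under quantile normalization and with the scan day as a block, 40 with the slide as a block and 38 with the failed arrays included), and 37 passed an unadjusted p of 0.05. The median log2 fold change was 1.1, with a range of 0.01 to 3.54, beside a median of -0.03 over all probes. Under normexp background correction the median over the 43 genes was 0.72. In 28 of the 43 genes the APP/PS1 arrays all lay above the WT arrays, which was the case for 2.06% of all probes.

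**Figure D1:**
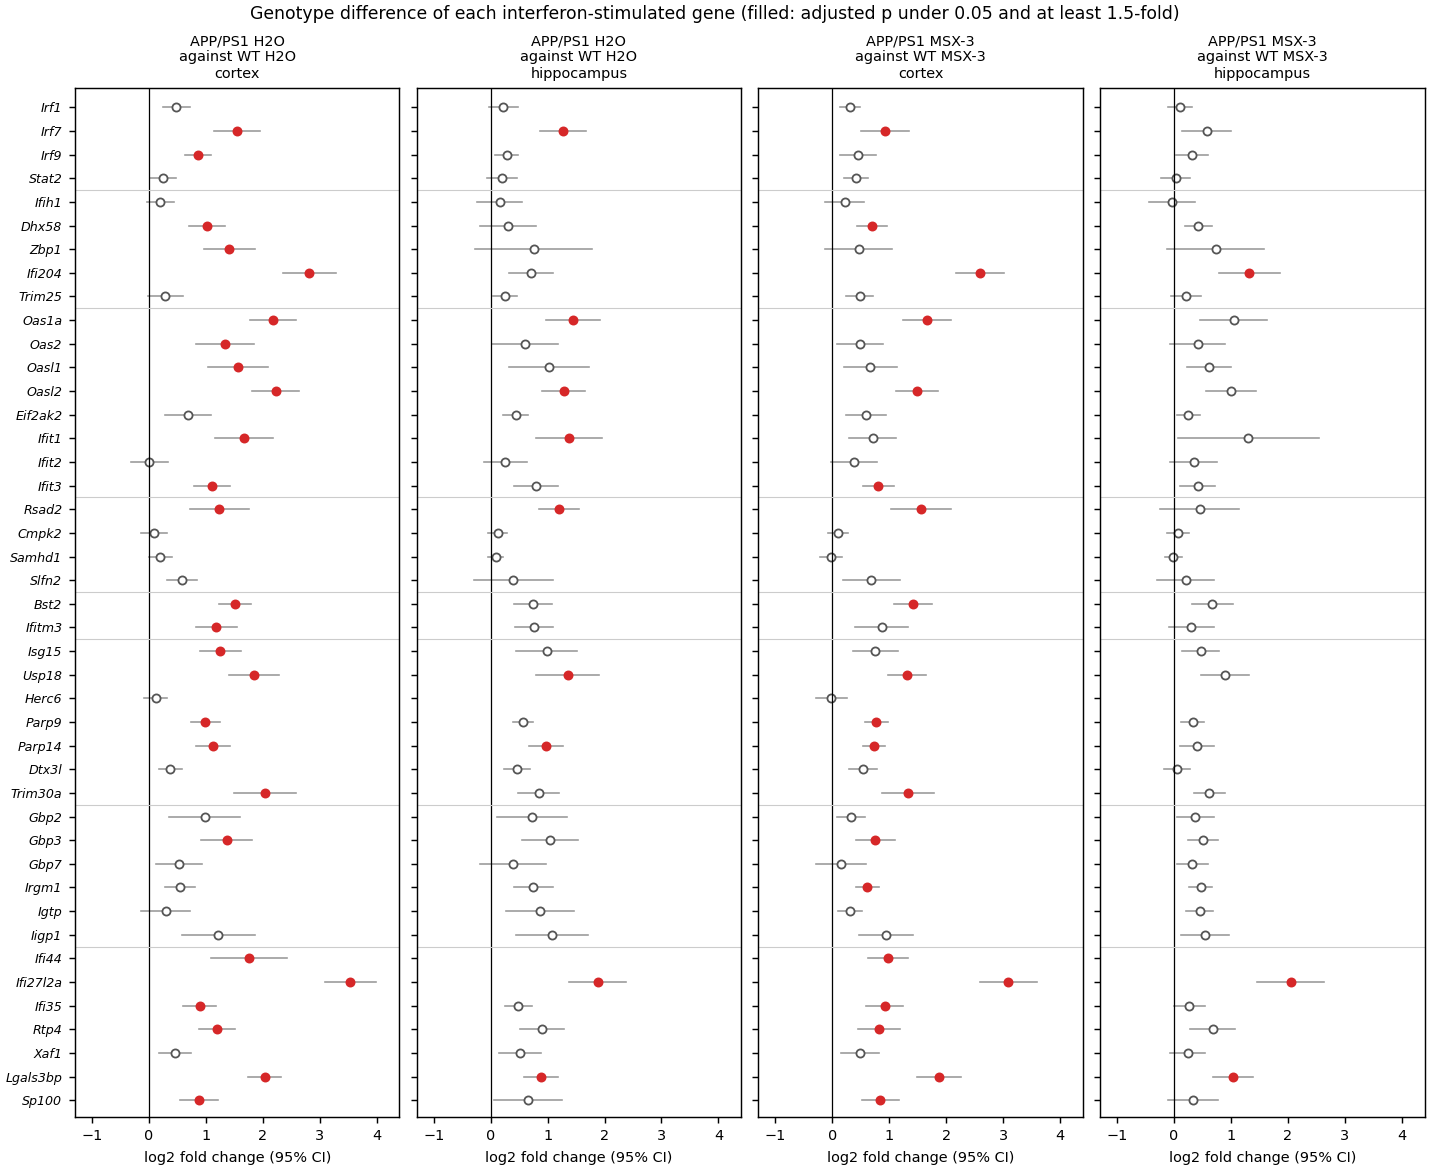
Log2 fold change of each interferon-stimulated gene between APP/PS1 and WT mice (x axis, log2 units, lines are 95% confidence intervals) in 4 comparisons (panels), with genes grouped by role from top to bottom and filled points for called genes. A total of 26 of 43 genes are filled in the cortex of H2O mice, 9 of 41 in the hippocampus of H2O mice, 20 of 43 in the cortex of MSX-3 mice and 3 of 41 in the hippocampus of MSX-3 mice.

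Of the 4 transcription factors, 2 were called in the cortex of H2O mice. Irf7 is the factor that amplifies the response once it has started. Its cortical levels in WT H2O mice were -1.18, -0.96, -0.74, -0.65 and -0.63, and in APP/PS1 H2O mice they ran from 0.20 through a median of 0.64 to 1.29. Every APP/PS1 array lay above every WT array, with a log2 fold change of 1.55 ± 0.19 (2.93-fold, adjusted p = 0.0005924). A further probe of Irf7 gave 1.11 and was not called. Irf9, the DNA-binding partner of Stat2, was at -0.76, -0.76, -0.69, -0.68 and -0.61 in WT H2O cortex and between -0.15 and 0.37 in APP/PS1 H2O cortex, with a median of 0.26. It rose by 0.86 ± 0.11 (1.82-fold, adjusted p = 0.0007406), again without overlap, and its other probe gave 0.68 and was not called. The remaining pair did not pass. Irf1, a factor shared by the type I and type II responses, differed by 0.48 ± 0.11 (adjusted p = 0.0519), with WT arrays at -0.37 to -0.24 and APP/PS1 arrays at -0.09 to 0.60. Stat2 differed by 0.25 ± 0.10 (adjusted p = 0.368) and its groups overlapped, with WT arrays at 0.42 to 0.90 and APP/PS1 arrays at 0.73 to 1.08. The other probes of Irf1 and Stat2 both gave -0.15.

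Among sensors of RNA and DNA and their regulators, 3 of 5 were called. Ifi204 belongs to the family of interferon-inducible proteins that bind DNA. It was at -5.58, -5.18, -4.83, -4.71 and -4.68 in WT H2O cortex, where it was well above background on 4 of 5 arrays, and at -2.55 to -1.77 in APP/PS1 H2O cortex, with a median of -2.23. The 2 genotypes were thus more than 2 log2 units apart at their nearest arrays, and the log2 fold change was 2.82 ± 0.21 (adjusted p = 1.487e-05). Zbp1, a sensor of left-handed nucleic acid, rose by 1.41 ± 0.21 (2.67-fold, adjusted p = 0.002676), and Dhx58, a regulator of the RNA helicase sensors, by 1.02 ± 0.15 (2.03-fold, adjusted p = 0.002294). Ifih1, the sensor also known as MDA5, differed by 0.20 (adjusted p = 0.5111), and the ubiquitin ligase gene Trim25 by 0.29 (adjusted p = 0.4555).

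Of the effectors that act on RNA, 6 of 8 were called. The oligoadenylate synthetases make the messenger that activates RNase L, and their relatives Oasl1 and Oasl2 lack that activity or have other roles. Oas1a was at -2.83, -2.65, -2.63, -2.39 and -2.11 in WT H2O cortex and at -0.76 to 0.14 in APP/PS1 H2O cortex, with a median of -0.46. Its log2 fold change was 2.18 ± 0.18 (adjusted p = 3.718e-05). Oasl2 was at -3.33, -3.13, -2.91, -2.90 and -2.73 in WT mice and at -1.28 to -0.14 in APP/PS1 mice, with a median of -0.84, which made 2.22 ± 0.19 (adjusted p = 4.335e-05). In both genes the groups stood apart by more than 1 log2 unit. Oasl1 had WT levels of -4.82, -4.77, -4.73, -4.30 and -4.05 and APP/PS1 levels of -3.82 to -2.48, with a median of -2.90, for a log2 fold change of 1.56 ± 0.24 (2.96-fold, adjusted p = 0.003508). Its lowest APP/PS1 array lay only a little above the highest WT array. Oas2 rose by 1.33 ± 0.23 (2.52-fold, adjusted p = 0.009575). The Ifit proteins bind foreign RNA ends and block translation. Ifit1 was at -4.38, -4.16, -4.09, -3.94 and -3.88 in WT mice and at -2.89 to -1.46 in APP/PS1 mice, with a median of -2.58 and a log2 fold change of 1.66 ± 0.23 (3.17-fold, adjusted p = 0.001931). Ifit3 rose by 1.1 ± 0.14 (2.15-fold, adjusted p = 0.001041). Ifit2, by contrast, differed by 0.01 ± 0.15 (adjusted p = 0.9869). Eif2ak2, the kinase PKR, differed by 0.69 (1.61-fold, adjusted p = 0.1091).

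**Figure D2:**
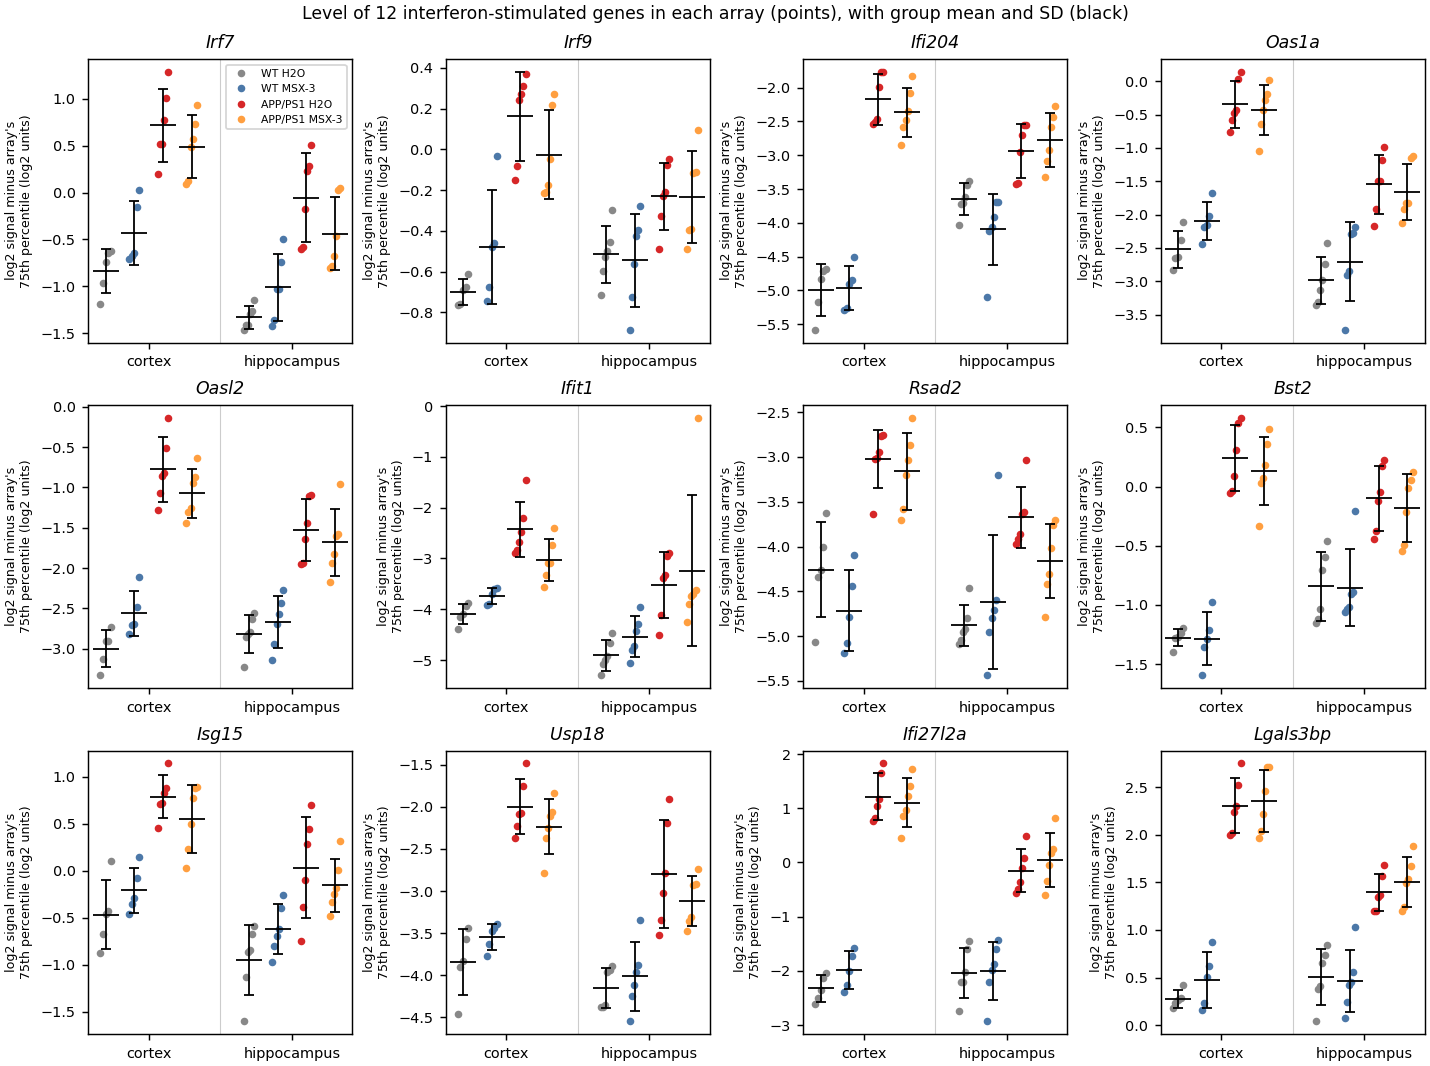
Level of 12 interferon-stimulated genes (y axis, log2 signal minus the array's 75th percentile, log2 units) on every array used, as coloured points by group, with the group mean and SD in black, for the cortex on the left and the hippocampus on the right of each panel. Irf7 in APP/PS1 H2O cortex lies between 0.20 and 1.29, above all WT H2O arrays of the cortex, and 1 hippocampal array of the APP/PS1 MSX-3 group lies at -0.23 for Ifit1.

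Enzymes of nucleotide metabolism and replication gave 1 call of 4. Rsad2 encodes viperin, which makes a chain-terminating nucleotide. It was at -5.06, -4.34, -4.26, -4.0 and -3.62 in WT H2O cortex and at -3.64 to -2.75 in APP/PS1 H2O cortex, with a median of -2.98. The log2 fold change was 1.24 ± 0.24 (2.35-fold, adjusted p = 0.01826), although the highest WT array reached the lowest APP/PS1 array. The call was lost when APP/PS1 H2O mouse 259 or WT H2O mouse 318 was left out, at 1.18 and 1.23. Slfn2 had an adjusted p of 0.02856 at 1.49-fold, just short of the fold required, while Cmpk2, the neighbour of Rsad2 in the genome, and Samhd1, which degrades nucleotides, differed by 0.09 and 0.20. Both membrane proteins tested were called. Bst2, or tetherin, was at -1.39, -1.28, -1.28, -1.23 and -1.20 in WT H2O cortex and at -0.05 to 0.58 in APP/PS1 H2O cortex, with a median of 0.20, and rose by 1.52 ± 0.13 (2.86-fold, adjusted p = 4.015e-05). Ifitm3, which hinders virus entry, rose by 1.18 ± 0.17 (2.27-fold, adjusted p = 0.001967).

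In the Isg15 system and among ubiquitin and ADP-ribose enzymes, 5 of 7 genes were called. Isg15 is itself attached to proteins, and Usp18 removes it and dampens receptor signalling. Isg15 was at -0.88, -0.67, -0.46, -0.43 and 0.10 in WT H2O cortex and at 0.46 to 1.14 in APP/PS1 H2O cortex, with a median of 0.77, and rose by 1.26 ± 0.17 (2.39-fold, adjusted p = 0.001368). Usp18 was at -4.46, -3.90, -3.83, -3.57 and -3.44 in WT mice and at -2.37 to -1.48 in APP/PS1 mice, with a median of -2.08, and rose by 1.84 ± 0.20 (3.59-fold, adjusted p = 0.0002636). Neither gene overlapped between genotypes. Trim30a, a member of the tripartite motif family, had WT levels of -5.05, -4.44, -4.40, -4.14 and -4.01 and APP/PS1 levels of -2.90 to -1.51, with a median of -2.42, for 2.04 ± 0.25 (4.11-fold, adjusted p = 0.0005953). The partners Parp9 and Parp14 rose by 0.99 ± 0.11 (1.99-fold, adjusted p = 0.0004358) and 1.13 ± 0.14 (2.19-fold, adjusted p = 0.0006686). Dtx3l, which forms a complex with Parp9, differed by 0.37 (adjusted p = 0.08116), and the ligase gene Herc6 by 0.12.

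The guanylate-binding proteins and immunity-related GTPases, which are best known as targets of interferon gamma, gave 1 call of 6. Without APP/PS1 mouse 325, Irgm1 and Iigp1 were called too, and Gbp2 and Iigp1 were in a fit over all 4 groups. Gbp3 rose by 1.36 ± 0.21 (2.57-fold, adjusted p = 0.003293). Irgm1 had an adjusted p of 0.03795 at 1.46-fold, and of its 2 other probes, at 0.20 and 0.67, 1 was called. Iigp1 and Gbp2 had wide intervals and differed by 1.22 ± 0.29 (adjusted p = 0.06686) and 0.98 ± 0.29 (adjusted p = 0.1588), Gbp7 by 0.53 and Igtp by 0.29. Of the other 7 genes, 6 were called. Ifi27l2a, a small mitochondrial protein gene, had WT levels of -2.61, -2.49, -2.35, -2.12 and -2.03 and APP/PS1 levels of 0.77 to 1.83, with a median of 1.1. This log2 fold change of 3.54 ± 0.20 (adjusted p = 2.184e-06) was the largest of the list. Lgals3bp, a secreted glycoprotein gene that binds galectins, was at 0.18, 0.23, 0.26, 0.28 and 0.42 in WT mice and at 2.0 to 2.75 in APP/PS1 mice, with a median of 2.27, for 2.03 ± 0.13 (4.08-fold, adjusted p = 5.793e-06). Ifi44 was at -6.78, -5.79, -5.52, -5.44 and -5.08 in WT mice, well above background on only 1 of 5 arrays, and at -4.90 to -3.59 in APP/PS1 mice, with a median of -3.85, for 1.76 ± 0.30 (3.38-fold, adjusted p = 0.009158). It passed the dim-probe filter through the APP/PS1 arrays, its WT level is mostly background, and under normexp background correction the difference was 0.52 and not called. Rtp4, Ifi35 and the nuclear body gene Sp100 rose by 1.20 ± 0.14, 0.89 ± 0.13 and 0.88 ± 0.15, and Xaf1 differed by 0.45 (adjusted p = 0.1364).

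Calls in the cortex of H2O mice fell on genes with and without an ISRE match in the window, which is given as a description. Of the genes with a match, 9 of 16 were called (56.2%, median log2 fold change 1.14), and of those with a window and no match, 8 of 17 (47.1%, median 0.58). The genes with no window at hand had 9 of 10 called (90%, median 1.28). Irf7 and Lgals3bp were among the called genes without a match.

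Most cortical differences kept their direction within each scan day. On the first scan day, with 5 APP/PS1 and 2 WT arrays, 42 of 43 genes were higher and the median difference was 1.17, and on the second, with 1 and 3 arrays, 38 of 43 were higher and the median was 0.89. A fit with the scan day as a block called the same 26 genes. A fit with the slide as a block called 12 of the 26 and no others, among them Irf7, Ifi204, Oas1a, Oasl2, Bst2, Isg15, Usp18, Ifi27l2a and Lgals3bp.

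Among the genes upstream of the program, calls in the cortex of H2O mice fell on relay and sensing genes, beside 1.34% of all probes called higher. Of 10 interferon genes, 9 had a probe, 4 were kept by the filter and 0 were called. Ifnb1 and Ifng were well above background on 0 arrays of the cortex. None of 5 receptor genes was called: Ifnar1 differed by 0.13 ± 0.09 (adjusted p = 0.6058) and Ifnar2 by 0.33 ± 0.08 (adjusted p = 0.06964), and Ifngr1 had an adjusted p of 0.01659 at a log2 fold change of 0.46. Among genes that relay or restrain the receptor signal, the phosphatase gene Ptpn6 was called at 1.52 ± 0.09 (adjusted p = 3.23e-06). Of 15 genes of upstream sensing, 4 were called: Irf8 at 1.62 ± 0.11, Irf5 at 1.03 ± 0.17, the RNA helicase gene Rigi at 0.86 ± 0.09 and Sting1, the adaptor of cytosolic DNA sensing, at 0.66 ± 0.10. Irf5, Irf8 and Ptpn6 are also typical of microglia.

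Genes of antigen presentation and chemokines, which interferon also induces, gave larger shares. In the cortex of H2O mice, 9 of 17 antigen presentation genes were called, with a median log2 fold change of 0.89 over the 17. They were B2m at 0.99, H2-K1 at 1.02, H2-D1 at 0.73, Tap1 at 0.89, Psmb8 at 1.27, Psmb9 at 0.94, Nlrc5 at 1.5, H2-Ab1 at 1.58 and Cd74 at 1.49. Of 4 chemokines tested, 3 were called, with Cxcl10 at 4.83 ± 0.52 (adjusted p = 0.0002691), Ccl12 at 1.84 ± 0.22 and Ccl5 at 1.46 ± 0.20. Cxcl10 was well above background on only 2 of 5 WT arrays, so the size of its rise rests on a WT level near background. In the hippocampus of H2O mice, the counts were 5 of 16 and 2 of 4, with Cxcl10 at 2.51 ± 0.33 (adjusted p = 0.003191). In MSX-3 mice they were 9 of 17 and 4 of 4 in the cortex and 1 of 16 and 1 of 4 in the hippocampus. Nlrc5, a regulator of class I genes, and Cxcl10 were the 2 called in the hippocampus of MSX-3 mice, at 1.02 ± 0.13 and 1.66 ± 0.20.

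Most markers of the microglia that gather around plaques were also called higher in APP/PS1 H2O mice. In the cortex of H2O mice, 9 of these 10 markers were called higher, with Cst7 at 6.83, and their summed linear level, in units of the array's 75th percentile, was 37.8 to 56 in APP/PS1 mice and 12.7 to 14.4 in WT mice. In the hippocampus of H2O mice 6 of 10 were called, and the sums were 24.8 to 32.2 and 13.5 to 16.8. Markers of microglia in general gave 5 of 9 calls in the cortex and 0 of 9 in the hippocampus, with sums of 303 to 359 against 243 to 363 in the cortex. Among 7 astrocyte markers, Gfap at 2.69 and Vim at 0.89 were called in the cortex. None of 6 neuron, 5 oligodendrocyte, 7 endothelium and pericyte, 5 T and NK cell, 3 B cell, 4 monocyte and neutrophil, 2 red cell or 5 choroid plexus markers tested was called in the cortex of H2O mice. In the hippocampus of H2O mice, choroid plexus markers had a median log2 fold change of -1.33 with 0 of 5 called. Cd8a, Ms4a1, Ccr2 and Plac8 were not kept by the filter in either tissue. In bulk tissue, a larger number of cells of a type and more RNA per cell cannot be told apart, and the part of cell numbers in the interferon-stimulated genes was not tested.

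In the hippocampus of H2O mice the same direction was seen with smaller differences and fewer calls. Of 41 genes tested, 9 were called higher and 0 lower, as compared with 0.338% of all 38128 probes called higher. The 9 genes were Ifi27l2a, Oas1a, Ifit1, Usp18, Oasl2, Irf7, Rsad2, Parp14 and Lgals3bp, and every one of them was also called in the cortex. All 41 genes had a higher mean in APP/PS1 mice, 31 with an unadjusted p under 0.05, and the median log2 fold change was 0.75. In 15 genes the genotypes did not overlap, against 0.741% of all probes.

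Ifi27l2a was again the largest, at -2.74 to -1.45 in WT H2O hippocampus (median -2.11) and at -0.56 to 0.48 in APP/PS1 H2O hippocampus (median -0.23). Its log2 fold change was 1.88 ± 0.23 (3.68-fold, adjusted p = 0.001838). Irf7 was at -1.46 to -1.14 in WT mice (median -1.35) and -0.60 to 0.51 in APP/PS1 mice (median 0.03), a rise of 1.28 ± 0.19 (2.42-fold, adjusted p = 0.006371). In both genes all 6 APP/PS1 arrays were above the 6 WT arrays. The other probe of Irf7 gave 0.94 and was not called. Oas1a went from -3.36 to -2.42 in WT mice (median -3.05) to -2.18 to -0.99 in APP/PS1 mice (median -1.5), with 1.44 ± 0.22 (2.72-fold, adjusted p = 0.008079), and Oasl2 from -3.22 to -2.55 (median -2.80) to -1.94 to -1.09 (median -1.54), with 1.28 ± 0.17 (2.43-fold, adjusted p = 0.003608). Rsad2 ran from -5.09 to -4.46 in WT mice (median -4.94) and from -3.97 to -3.04 in APP/PS1 mice (median -3.75), with 1.20 ± 0.16 (2.30-fold, adjusted p = 0.00331). Unlike in the cortex, its groups did not overlap. Usp18 rose by 1.35 ± 0.26 (2.56-fold, adjusted p = 0.04175), Parp14 by 0.97 ± 0.14 (1.96-fold, adjusted p = 0.00453) and Lgals3bp by 0.88 ± 0.14 (1.84-fold, adjusted p = 0.01148). Ifit1 rose by 1.38 ± 0.27 (2.60-fold, adjusted p = 0.04766) but overlapped, with the lowest APP/PS1 array at -4.51 and the highest WT array at -4.46. The calls of Ifit1 and Usp18 were each lost when any of 10 of the 12 mice was left out, at 1.25 to 1.47 and 1.18 to 1.41, and were kept only without APP/PS1 mouse 323 or 325.

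By role, calls in the hippocampus of H2O mice fell on 1 of 4 transcription factors, 0 of 5 sensors, 3 of 8 RNA-directed effectors, 1 of 4 nucleotide enzymes, 0 of 2 membrane proteins, 2 of 6 genes of the Isg15 group, 0 of 6 GTPases and 2 of 6 others. The GTPase gene Irgm1 was not called at 0.75, but of its 2 other probes, at 0.44 and 0.7, 1 was called. Several genes fell just short of the adjusted p: Trim30a at 0.84 (adjusted p = 0.05433), Rtp4 at 0.90 (adjusted p = 0.05437), Ifitm3 at 0.76 (adjusted p = 0.0566, with 1 APP/PS1 spot missing) and Bst2 at 0.75 (adjusted p = 0.06943). Parp9 had an adjusted p of 0.004105 at 1.48-fold. Isg15 differed by 0.98 ± 0.25 (1.98-fold, adjusted p = 0.1486), Gbp3 by 1.04 (adjusted p = 0.08727), Igtp by 0.86 ± 0.27 (adjusted p = 0.2872) and Zbp1, with wide scatter, by 0.75 ± 0.47 (adjusted p = 0.6089). Irf9 differed by 0.28 ± 0.09 (adjusted p = 0.3093), Irf1 by 0.22 (adjusted p = 0.5343) and Stat2 by 0.20 (adjusted p = 0.5863).

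Scan day bears on the hippocampal calls, since all 6 APP/PS1 H2O arrays were read on the first day and 4 of 6 WT H2O arrays on the second. Within the first day, 39 of 41 genes were higher in APP/PS1 mice with a median difference of 0.76, and Ifi27l2a, Irf7 and Oas1a differed by 2.01, 1.31 and 1.32, but only 2 WT arrays entered. With the scan day as a block 1 gene was called, Ifi27l2a, and with the slide as a block 0 were, whereas the median log2 fold change stayed at 0.76 in both. A fit over all 4 groups of the tissue called 16, of which 8 were among the 9, without Ifit1. With all 4 groups, the scan day as a block left 12 calls, 7 of them among the 9, and the slide as a block 6, with 3 among the 9. How far scan day and slide add to these differences was not tested beyond these fits.

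In mice given MSX-3, the genotype comparison used other animals and gave the same direction. In the cortex, 20 of 43 genes were called higher and 0 lower, against 1.29% of probes, and 41 of 43 genes were higher, with a median log2 fold change of 0.71. In 24 genes the arrays of the genotypes did not overlap, against 2.36% of probes. Of the 20 genes, 19 were also called on H2O, which made 95% of the MSX-3 calls and 73.1% of the H2O calls. Irgm1 was called on MSX-3 only, at 0.62 ± 0.09 (1.53-fold, adjusted p = 0.002475), and Irf9, Zbp1, Oas2, Oasl1, Ifit1, Ifitm3 and Isg15 on H2O only. The 2 other probes of Irgm1 gave 0.46 and 0.5 and were not called on MSX-3, whereas 1 of them was called on H2O. With the scan day as a block 15 of the 20 were called, without Irf7, Gbp3, Irgm1, Rtp4 and Sp100, and the median stayed at 0.71. All 6 APP/PS1 arrays were read on the first day, and within it 41 of 43 genes were higher in APP/PS1 mice. With all 4 groups and the slide as a block 9 of the 20 were called. Whether genes differ between treatments is the question of the interaction given further on.

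Ifi27l2a led in the cortex of MSX-3 mice too, at -2.39, -2.27, -1.99, -1.72 and -1.57 in WT mice and 0.44 to 1.72 in APP/PS1 mice (median 1.1), with 3.09 ± 0.23 (8.53-fold, adjusted p = 1.021e-05). Ifi204 was at -5.28, -5.26, -4.91, -4.84 and -4.51 in WT mice and at -2.85 to -1.84 in APP/PS1 mice (median -2.42), with 2.60 ± 0.19 (6.04-fold, adjusted p = 1.239e-05). These 2 genes again had the widest gaps between genotypes. Lgals3bp rose by 1.87 ± 0.18 (3.66-fold, adjusted p = 8.648e-05), Oas1a by 1.66 ± 0.19 (3.16-fold, adjusted p = 0.000417), Rsad2 by 1.56 ± 0.24 (2.94-fold, adjusted p = 0.004357) and Oasl2 by 1.49 ± 0.17 (2.80-fold, adjusted p = 0.0003936). Bst2 rose by 1.42 ± 0.15, Trim30a by 1.33 ± 0.21, Usp18 by 1.3 ± 0.15 and Irf7 by 0.92 ± 0.19 (1.89-fold, adjusted p = 0.03274). The other probe of Irf7 gave 0.39 and was not called. The call of Irf7 was lost without any 1 of 7 mice (APP/PS1 mice 267, 283, 293 and 319, WT mice 49, 77 and 304), at 0.83 to 0.92, as were those of Gbp3 and Rtp4 without any 1 of 8, at 0.66 to 0.77 and 0.73 to 0.84. The mice were those 7 without 293 and with 266 and 281 for Gbp3, and those 7 with 281 for Rtp4. Without mouse 293, Irgm1 was at 0.58, under the fold required. Ifi44 rose by 0.98 ± 0.16 (1.97-fold, adjusted p = 0.007607), with 2 of 5 WT arrays well above background, Ifi35 by 0.92, Sp100 by 0.84, Rtp4 by 0.82, Ifit3 by 0.80, Parp9 by 0.78, Gbp3 by 0.75, Parp14 by 0.73 (from 5 APP/PS1 arrays, with 1 spot left out) and Dhx58 by 0.70. Of the genes called on H2O only, Isg15 differed by 0.76 ± 0.18 (adjusted p = 0.06471), Ifit1 by 0.71 ± 0.19 (adjusted p = 0.1132), Oasl1 by 0.67 ± 0.21 (adjusted p = 0.2157) and Irf9 by 0.45 ± 0.15 (adjusted p = 0.2304). Irf1 and Stat2 differed by 0.32 ± 0.08 (adjusted p = 0.096) and 0.42 ± 0.09 (adjusted p = 0.05275).

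In the hippocampus of MSX-3 mice 3 of 41 genes were called higher and 0 lower, against 0.312% of probes. They were Ifi27l2a at 2.05 ± 0.27 (4.13-fold, adjusted p = 0.00361), Ifi204 at 1.32 ± 0.25 (2.50-fold, adjusted p = 0.04735) and Lgals3bp at 1.04 ± 0.16 (2.05-fold, adjusted p = 0.01282). Ifi204 was at -5.10 to -3.69 in WT mice (median -3.99) and -3.32 to -2.28 in APP/PS1 mice (median -2.75), without overlap, but its call was lost without any 1 of 10 of the 12 mice, at 1.22 to 1.40, and kept only without APP/PS1 mouse 266 or WT mouse 77. Of the 41 genes 39 had a higher mean in APP/PS1 mice, with a median of 0.42, and in 8 the genotypes did not overlap, against 0.588% of probes. Oasl2 differed by 1.0 ± 0.20 (adjusted p = 0.07274), Oas1a by 1.05 ± 0.27 (adjusted p = 0.2865), Usp18 by 0.89 (adjusted p = 0.1031), Irf7 by 0.57 ± 0.20 (adjusted p = 0.817) and Rsad2 by 0.45 ± 0.32 (adjusted p = 0.959). Ifit1 differed by 1.3 ± 0.57 (adjusted p = 0.959), a wide error that goes with 1 APP/PS1 mouse, number 293, at -0.23 while the next was at -3.62. With the slide as a block none of the 3 was called, at a median of 0.31 over the 41 genes, and with the scan day as a block all 3 and Oasl2 were. Within the first and second scan day the median difference was 0.47 and 0.33.

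Over the 4 genotype comparisons, 27 genes were called in at least 1. Ifi27l2a and Lgals3bp were called in all 4, and Ifi204, Irf7, Oas1a, Oasl2, Parp14, Rsad2 and Usp18 in 3. The other probe of Irf7 was not called in any of them. A total of 16 tested genes were called in none: Cmpk2, Dtx3l, Eif2ak2, Gbp2, Gbp7, Herc6, Ifih1, Ifit2, Igtp, Iigp1, Irf1, Samhd1, Slfn2, Stat2, Trim25 and Xaf1. Across genes, which are no independent replicates, the H2O and MSX-3 log2 fold changes of the cortex had a Pearson r of 0.89 and a Spearman rho of 0.83 over 43 genes, with the larger value on H2O for 31. In the hippocampus r was 0.80 and rho 0.83 over 41 genes, with the larger value on H2O for 35.

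The effect of MSX-3 itself was compared with H2O within each genotype. These comparisons share their arrays with the genotype comparisons above. No interferon-stimulated gene was called in any of the 4, and neither was any other probe (0% called higher and 0% called lower), whereas 1465 to 3271 probes per comparison passed an unadjusted p of 0.05. With array weights, however, 3 genes were called in the WT cortex, a fit whose share of all probes is not given here. Among APP/PS1 cortices, 3 of 43 genes passed an unadjusted p of 0.05, and all were lower on MSX-3. Gbp7 differed by -0.51 (95% CI -0.96 to -0.06), Ifit1 by -0.61 (95% CI -1.16 to -0.05) and Trim30a by -0.44 (95% CI -0.88 to -0.01), each with an adjusted p of 0.7312 by limma. The median over the 43 genes was -0.12, with 8 higher on MSX-3. In the hippocampus of APP/PS1 mice the median was -0.11, with 10 of 41 higher, but with the slide as a block it turned to 0.23, with 34 of 41 higher, and with all 4 groups and the slide it was -0.032, with 15 of 41 higher. Parp14, which had the lowest p of the 41 genes, was lower there by -0.54 (95% CI -0.85 to -0.22, adjusted p = 0.9803). Its H2O arrays were at -2.30 to -1.41 (median -2.11) and its MSX-3 arrays at -2.86 to -2.34 (median -2.53). Iigp1 and Rsad2 differed by -0.58 (95% CI -1.14 to -0.03) and -0.49 (95% CI -0.93 to -0.05).

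Most differences in WT mice were above 0. In the cortex 28 of 43 genes were higher on MSX-3, with a median of 0.15, and 8 had an unadjusted p under 0.05. Oasl1 was at -4.82, -4.77, -4.73, -4.30 and -4.05 on H2O and at -4.11, -3.95, -3.79, -3.46 and -3.18 on MSX-3, a difference of 0.84 (95% CI 0.38 to 1.29, adjusted p = 0.5639), and the groups overlapped in 1 array each. Oas2 and Ifit1 differed by 0.65 (95% CI 0.14 to 1.15) and 0.35 (95% CI 0.08 to 0.62). In the WT hippocampus 31 of 41 genes were higher, with a median of 0.11, and only Dtx3l had an unadjusted p under 0.05, at 0.27 (95% CI 0.03 to 0.51, adjusted p = 0.9645). Irf7 differed by 0.32 (95% CI -0.0034 to 0.64) and Ifi204 by -0.45 (95% CI -0.92 to 0.02). A p that misses the threshold does not show equal levels: among single genes the 95% intervals reached from -1.16 to 0.50 in the APP/PS1 cortex, and from -1.07 to 1.57 in the WT cortex.

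**Figure D3:**
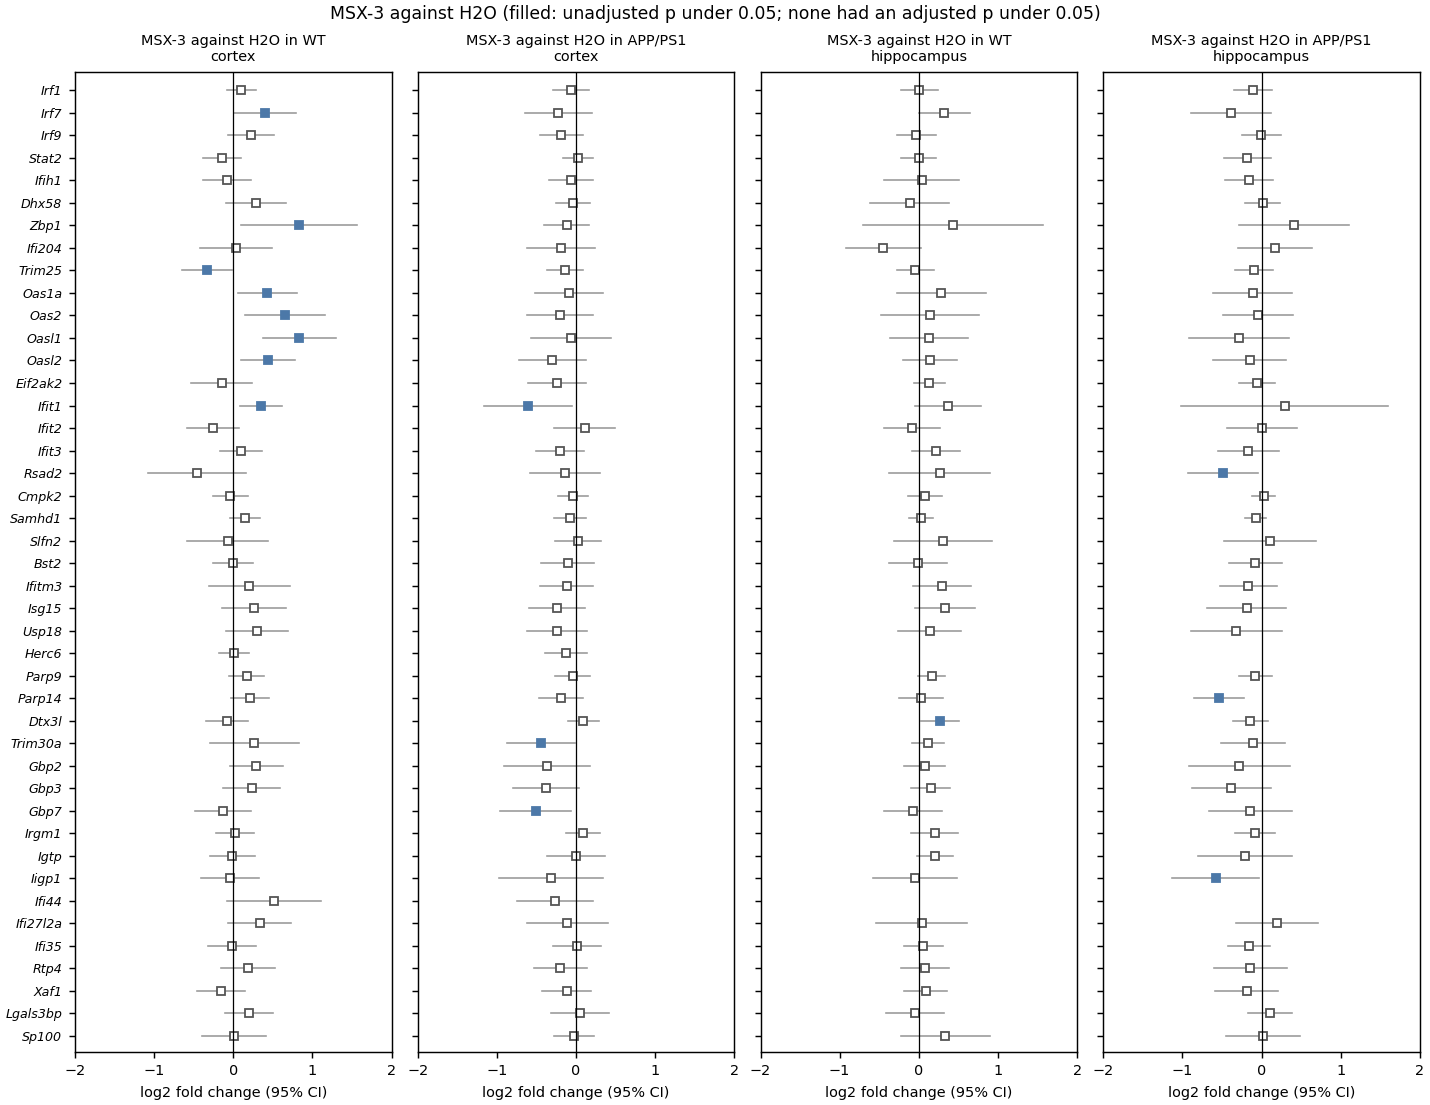
Log2 fold change of each interferon-stimulated gene between MSX-3 and H2O (x axis, log2 units, lines are 95% confidence intervals) in WT and APP/PS1 mice of both tissues (panels), with filled squares for an unadjusted p under 0.05. The filled squares number 8 in WT cortex, 3 in APP/PS1 cortex, 1 in WT hippocampus and 3 in APP/PS1 hippocampus, and no gene had an adjusted p under 0.05.

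The interaction asks whether the genotype difference itself was smaller or larger on MSX-3 than on H2O. No gene was called in either tissue, and 0% of probes were called higher or lower. In the cortex 11 of 43 genes had an unadjusted p under 0.05, beside 1794 of 37677 probes, and 12 of 43 estimates were above 0, with a median of -0.28. Ifit1 had the lowest p, with an interaction of -0.96 (95% CI -1.60 to -0.31), followed by Oasl2 at -0.74 (95% CI -1.28 to -0.19) and Oas2 at -0.85 (95% CI -1.5 to -0.21), each at adjusted p = 0.7439. In the hippocampus, 6 of 41 estimates were above 0, with a median of -0.22, and Parp14, Dtx3l and Irf7 had the lowest p at -0.56 (95% CI -0.97 to -0.16), -0.41 (95% CI -0.71 to -0.11) and -0.71 (95% CI -1.29 to -0.12), each with an adjusted p of 0.8969.

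The tissues were then compared. In H2O mice, the genotype difference was larger in the cortex than in the hippocampus for 35 of 41 genes, with a median of 0.27 between the log2 fold changes, against 0.00 over all 36742 probes. It was called larger in the cortex for 3 genes and smaller for 0, where 0.256% of probes were called larger. Ifi204 gave 2.11 ± 0.28 (adjusted p = 0.0006612), Ifi27l2a 1.66 ± 0.32 (adjusted p = 0.02245) and Lgals3bp 1.15 ± 0.20 (adjusted p = 0.008987). Both tissues came from the same mice, and with the mouse as a replicate block, or with the slide as a block, Ifi204 was the 1 gene still called. The call of Ifi27l2a was also lost without any 1 of 6 mice, APP/PS1 mice 81, 255 and 323 and WT mice 71, 258 and 308, at 1.45 to 1.74. Among markers of microglia around plaques, 7 of 10 were also called larger in the cortex, and their part in the 3 genes was not tested. In MSX-3 mice 35 of 41 genes had a larger estimate in the cortex, with a median of 0.32, and 0 genes were called, against 0.185% of probes. Of these genes, 10 had an unadjusted p under 0.05, beside 2441 of 36742 probes, and Ifi204 and Lgals3bp differed by 1.27 (adjusted p = 0.2151) and 0.83 (adjusted p = 0.3916). Without WT MSX-3 mouse 77, whose hippocampal Ifi204 level was -5.10, 1 gene was called.

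**Figure D4:**
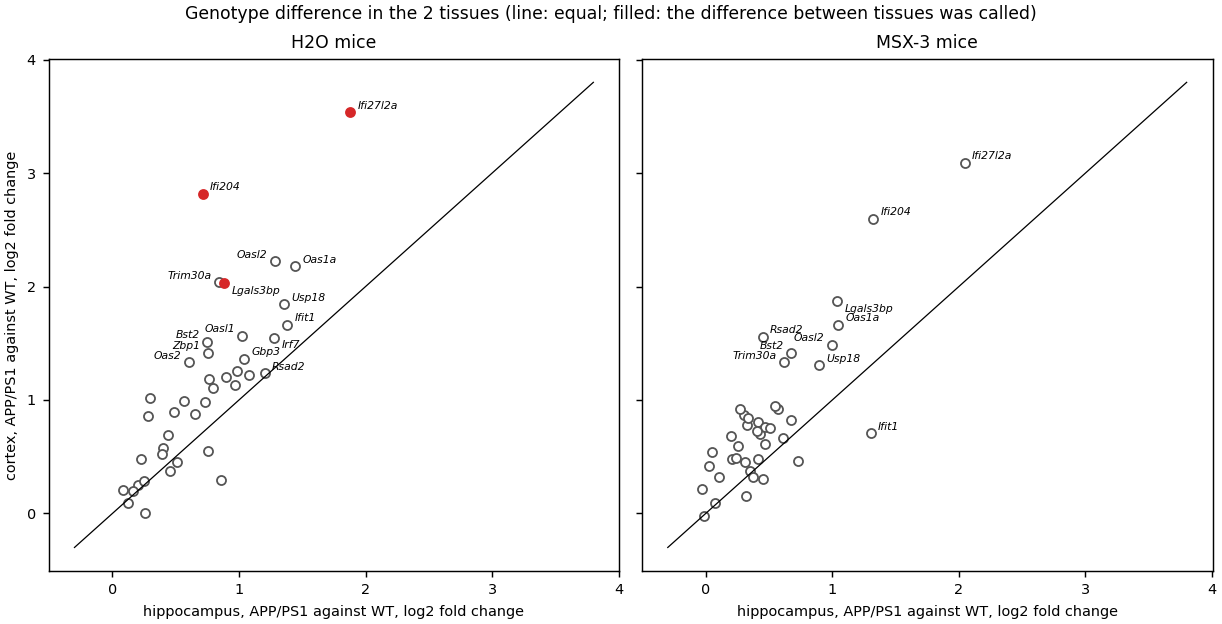
Log2 fold change between APP/PS1 and WT mice in the hippocampus (x axis) and in the cortex (y axis) for the 41 interferon-stimulated genes tested in both, in H2O mice (left) and MSX-3 mice (right), with a line where both are equal. Most points lie above the line, and Ifi204, Ifi27l2a and Lgals3bp are filled on the left as the 3 genes with a called difference between tissues.

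Basal levels also differed between tissues. Between cortex and hippocampus of WT H2O mice, 7 of 41 genes were called higher in the cortex and 1 lower, against 7.38% and 6.96% of probes. Igtp, an immunity-related GTPase gene, was at -0.16, -0.07, 0.09, 0.27 and 0.35 in the cortex and at -1.85 to -1.38 in the hippocampus, a difference of 1.76 ± 0.13 (adjusted p = 1.281e-06). Slfn2 was higher by 1.12 ± 0.25 (adjusted p = 0.005349), Ifit2 by 0.86 ± 0.17 (adjusted p = 0.002691), Ifit1 by 0.82 ± 0.15 (adjusted p = 0.001642) and Ifih1 by 0.80 ± 0.18 (adjusted p = 0.005212), and Irgm1 and Trim25 were also called, the latter not without mouse 318. Ifi204 was lower in the cortex by -1.35 ± 0.17 (adjusted p = 0.0001225), with hippocampal levels of -4.03 to -3.38. It thus stood lower in the cortex of WT mice and higher there in APP/PS1 mice, at -2.55 to -1.77 as compared with -3.43 to -2.55 in the hippocampus.

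Within the APP/PS1 groups, mice differed in how far the whole list was raised. For each mouse, the median over the genes of its level minus the WT H2O mean was 0.62 to 1.19 in the APP/PS1 cortex and -0.17 to 0.22 in the WT cortex, without overlap. In the hippocampus it was 0.21 to 1.06 in APP/PS1 H2O mice, 0.35 to 0.82 in APP/PS1 MSX-3 mice, -0.08 to 0.11 in WT H2O mice and -0.08 to 0.29 in WT MSX-3 mice, so that the lowest transgenic mouse lay within the range of the MSX-3 controls. That animal, APP/PS1 H2O mouse 325, was the lowest of its 6 for 29 of 43 genes in the cortex and 22 of 41 in the hippocampus. Mouse 261 was the highest of the same group for 22 of 41 genes in the hippocampus and 14 of 43 in the cortex. Among APP/PS1 MSX-3 mice, number 283 was the highest for 23 of 43 genes in the cortex and number 319 for 21 of 41 in the hippocampus. The mice are not ordered by any label, and the members share the arrays on which they were read.

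**Figure D5:**
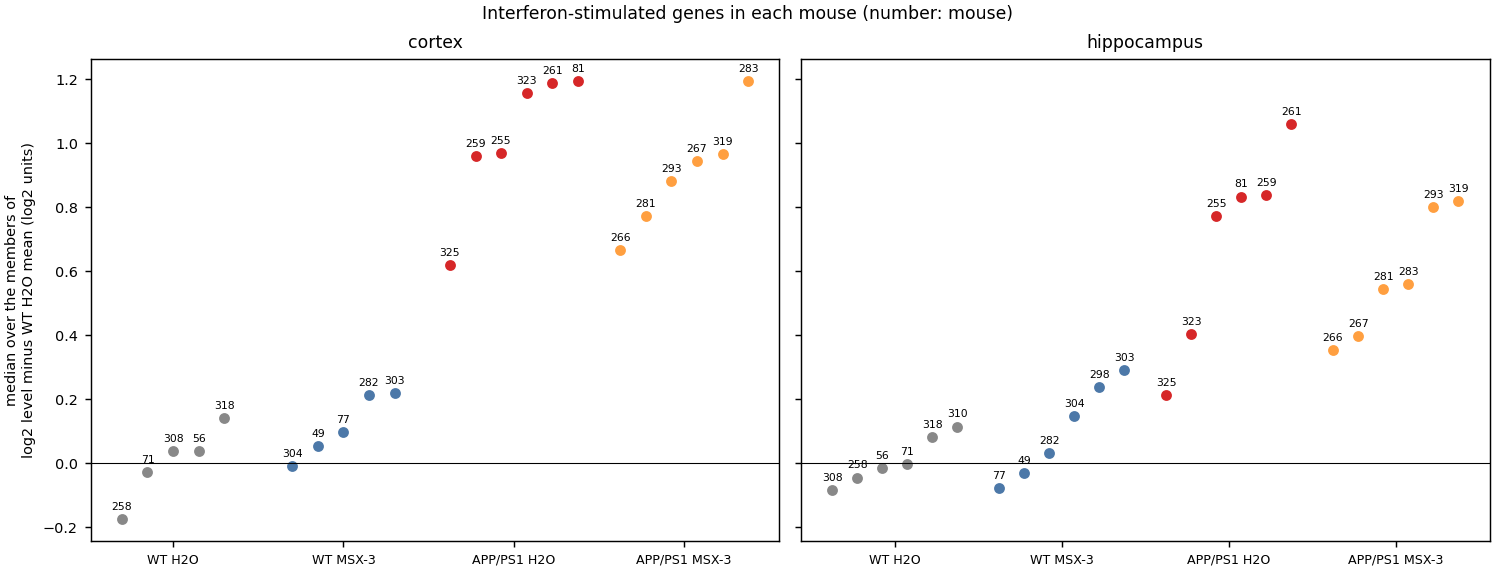
Median over the interferon-stimulated genes of the level minus the WT H2O mean (y axis, log2 units) for each mouse (points, with the mouse number), by group (x axis), in the cortex and the hippocampus. In the cortex the APP/PS1 mice lie at 0.62 to 1.19 and the WT mice at -0.17 to 0.22, and in the hippocampus mouse 325 is the lowest APP/PS1 mouse at 0.21.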

How the data were processed

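Total RNA of cortex and hippocampus was labelled with Cy3 and hybridised to 1-colour Agilent arrays. The intensity values deposited by the authors come from Agilent Feature Extraction 10.7.3.1, with background subtracted and no scaling between arrays, and the series matrix held the same values at 3022848 of 3022848 spots (relative tolerance 1e-06). The scaling and tests of the authors, made in GeneSpring, were redone here.

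Control spots (3671 of 62976) and spots marked as outliers were left out, the log2 signal was set against the array's 75th percentile, and spots were averaged to 56605 probes, of which 32994 were named through RefSeq and 59 from the study's tables. A dim-probe filter required 4 arrays of any 1 group of the tissue to be well above background. A gene was read from its kept probe with the highest mean. Groups were compared with limma 3.58.1 (R 4.3.3, with version 1.17.8 of the data.table package), lmFit and eBayes, on the arrays compared, with BH adjustment over all kept probes. Adjusted p-values come from this fit. Figures were drawn with matplotlib 3.10.9.

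The genes named with full values are those called in a genotype comparison, the 4 transcription factors, the 3 lowest p of each comparison with no call, and those called between tissues. The genes and lists were chosen with earlier results of these data known. Replicates are separate mice. The mouse number in the titles pairs the tissues, because both come from the same animal. Same-mouse deviations correlated at -0.52 to 0.499 over 22 pairs, with a median of 0.0384. In APP/PS1 H2O mice the median was 0.298 for the same mouse and -0.0381 for different mice. In APP/PS1 MSX-3 mice these were 0.128 and 0.016, and in WT MSX-3 mice 0.0488 and -0.0259. In WT H2O mice they were -0.276 and 0.319, and 4 of those 5 pairs were read on different scan days. The correlations alone thus do not establish the pairing. The scripts were tested on simulated data. The number of arrays limits the precision, and probes of gene families may bind related transcripts. One gene of the signalling list is not reported here.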

Additional observations from a re-analysis of the deposited data

Results flagged for a closer look

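Single arrays stood apart from the rest of their group in 6 of 120 groups checked over 15 genes, and chance alone gives about 1 in 20. In WT MSX-3 mice, Ifi204 was at -5.1 in the hippocampus of mouse 77 (nearest array -4.12), Trim30a at -5.02 in the cortex of mouse 304 (nearest -4.01) and Bst2 at -0.21 in the hippocampus of mouse 303 (nearest -0.89). In APP/PS1 mice, Ifi44 was at -4.9 in the cortex of H2O mouse 325 (nearest -3.96), Ifit1 at -0.23 in the hippocampus of MSX-3 mouse 293 (nearest -3.62) and Stat2 at 1.16 in the cortex of MSX-3 mouse 283 (nearest 0.87).

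The genotype difference of 3 genes was larger in the cortex than in the hippocampus of H2O mice by a test of that difference: Ifi204 by 2.11, Ifi27l2a by 1.66 and Lgals3bp by 1.15 on the log2 scale. With the mouse as a replicate block, only Ifi204 was still called, and the calls of Ifi27l2a and Lgals3bp were lost.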

How the results depend on the processing

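Of the counts of called genes under other settings, 333 stayed within 1.5 times the value reported and 17 did not. The 333 include counts of 0 that stayed at 0, for MSX-3 against H2O, the interactions and the tissue difference in MSX-3 mice. They are thus no measure of how stable the calls were. Of single gene and median values, 3913 were counted as unchanged, 201 lost a call, 64 gained one, 11 moved and 3 turned sign. A change of sign was counted only for a gene called in either fit, or for a median in a comparison with calls. Other changes of sign are among the 3913 or the 11. An example is the median for MSX-3 against H2O in APP/PS1 hippocampus, from -0.11 to 0.23 with the slide as a block. The counts that moved are these. With the 2 failed arrays included, 6 genes were called in H2O cortex, 2 in MSX-3 cortex, 0 for the tissue difference in H2O mice and 3 between WT tissues, Oas2 in H2O cortex turned to -0.027, Dhx58 in MSX-3 cortex to -0.531 and the median tissue difference in H2O mice to -0.042. That setting moved the median of all probes to -0.20 in H2O cortex and -0.29 in MSX-3 cortex. With the slide as a block, 12 were called in H2O cortex, 0 in H2O hippocampus, 0 in MSX-3 hippocampus and 1 for the tissue difference in H2O mice, and in MSX-3 cortex this block could not be fitted. With all 4 groups of the tissue and the slide as a block, 9 were called in MSX-3 cortex and 5 in MSX-3 hippocampus, and with all 4 groups alone, chosen after seeing the data, 16 in H2O hippocampus. The scan day as a block, also chosen then, left 1 in H2O hippocampus, and 12 with all 4 groups, at medians of 0.76 and 0.80 against 0.75. Array weights gave 3 calls for MSX-3 against H2O in WT cortex, where the main fit gave 0. The share of all probes called is not given for these other settings, so the counts are not set against it. Between WT tissues, normexp gave 3 and no minimum fold 19. The cause of these shifts was not tested.

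With the mouse as a replicate block, 1 gene was called for the tissue difference in H2O mice, 0 for that in MSX-3 mice and 9 between WT tissues, as compared with 3, 0 and 8 without the block. Leaving out each mouse in turn gave 25 to 30 calls in H2O cortex, 7 to 12 in H2O hippocampus, 17 to 21 in MSX-3 cortex, 2 to 4 in MSX-3 hippocampus, 2 to 3 and 0 to 1 for the tissue difference on H2O and on MSX-3, 7 to 11 between WT tissues, and 0 to 0 for MSX-3 against H2O and the interactions. Signal over background limits Ifi44, Ifi204 and Cxcl10, which were near background in WT cortex.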
